A study of Solanum tuberosum with 9 samples.

Results

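The comparison set potato tubers (Solanum tuberosum, cultivar Keshan) kept for 40 days under rosemary essential oil (REO), a volatile oil of the herb given by fumigation, against control tubers at day 0 of storage. It took the 3 REO libraries of day 40 and the 3 control libraries of day 0, 6 of the 9 libraries in the series, and all 34239 gene models of the count table. The other 3 libraries, control tubers at day 40, are set beside it where they show where a level stood without the oil. Day 0 tubers had neither the 40 days of storage nor the oil, so the 2 cannot be told apart in this comparison. Tubers were bought as mature commercial produce and stored sealed at a controlled temperature and humidity, per the labels. The sources used here do not give the oil dose, the storage temperature, the part of the tuber sampled or the number of tubers behind a library. The p-values therefore measure only the spread between these libraries.

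A potato tuber is a swollen underground stem that lives off its own reserves after harvest. Its buds first stay dormant and later sprout, and during that time the tuber draws down starch and the storage and defence proteins it laid down while growing. Plant essential oils are rich in volatile terpenes and are applied as vapour in stores to slow sprouting. In bulk tissue, fewer cells of a type and less RNA per cell cannot be told apart.

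The files give identifiers and no gene names, and 0 of them matched the reference gene table. Functions of the models below are therefore not stated, tuber marker genes could not be checked, and no sequence is shown. Models are named by identifier, 2 that rose and 2 that fell, and the others are described by chromosome, by place in the identifier order and by level. The number in an identifier gives the chromosome, and successive numbers differ by 10, which is called 1 step here. The order of steps was taken as it stands and was not checked against coordinates.

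Library totals ran from 29330673 to 36901701 counts in the 9 libraries. Levels are given as CPM, counts scaled to library size and composition. Across genes, which are no independent replicates, log2 CPM had Pearson correlations of 0.956 to 0.964 among day 0 libraries. They were 0.961 to 0.974 among REO libraries and 0.905 to 0.946 between the groups. Control day 40 replicate 2 had at least 1 count in 26805 models, against 23747 to 25195 in the other libraries. It belongs to neither group compared and enters the fit only through steps shared by the 9 libraries, such as the filter and the estimate of spread. In the 6 libraries, 50.5% of the variance lay on the first principal component, which placed day 0 at -87.9 to -33.9 and REO at 38.9 to 77.4, so the groups did not overlap on it.

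Of 22638 gene models with enough counts to test, 314 rose (1.39%) and 276 fell (1.22%) between day 0 and day 40 under REO, 590 in all (2.61%). The test was that of edgeR's quasi-likelihood model, with p adjusted by Benjamini-Hochberg and a threshold of 0.05. None (0) of the 590 changed sign in any of the 28 alternatives in which it was tested. The models that rose did so by the larger folds and the models that fell carried the larger levels. Among the risen models the median log2 value was 1.96, with quartiles of 1.28 and 3.10, and a rise of 4-fold or more was seen in 147. For the fallen models the median was -1.28 with quartiles of -1.94 and -0.98, and 66 fell at least 4-fold. The median over all tested models was 0.00.

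In levels the order was turned around. Summed over the fallen models, the level was 56188, 47309.7 and 70474 CPM in day 0 replicates 1, 2 and 3 and 13751, 15579 and 19060.3 CPM with REO. Summed over the risen models it was 4431, 4544 and 4462 CPM at day 0 and 13188, 14998 and 13589 CPM with REO. The sets were chosen on these libraries, so the gap between groups is a description. Expressed as a loss or gain, the fallen models lost 41861 CPM together and the risen models gained 9446 CPM. Most of that loss (75.9%) came from 10 fallen models in 2 stretches of chromosome 3, described below. Without them the fallen models summed to 17489 ± 1737 CPM at day 0 and 7399 ± 423 CPM with REO (SD, n = 3). The risen models summed to 4479 ± 58.1 and 13925 ± 951 CPM (SD, n = 3). Over all tested models, called or not, those with a lower mean lost 181554 CPM and those with a higher mean gained 138404 CPM. The scaled CPM of all tested models summed to 1044620 at day 0 and 1001470 with REO, so loss and gain need not balance. Of the fallen models 31 lost at least 100 CPM, and 7 of these lost at least 1000 CPM. Of the risen models 19 gained at least 100 CPM and none (0) gained 1000 CPM.

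**Figure D1:**
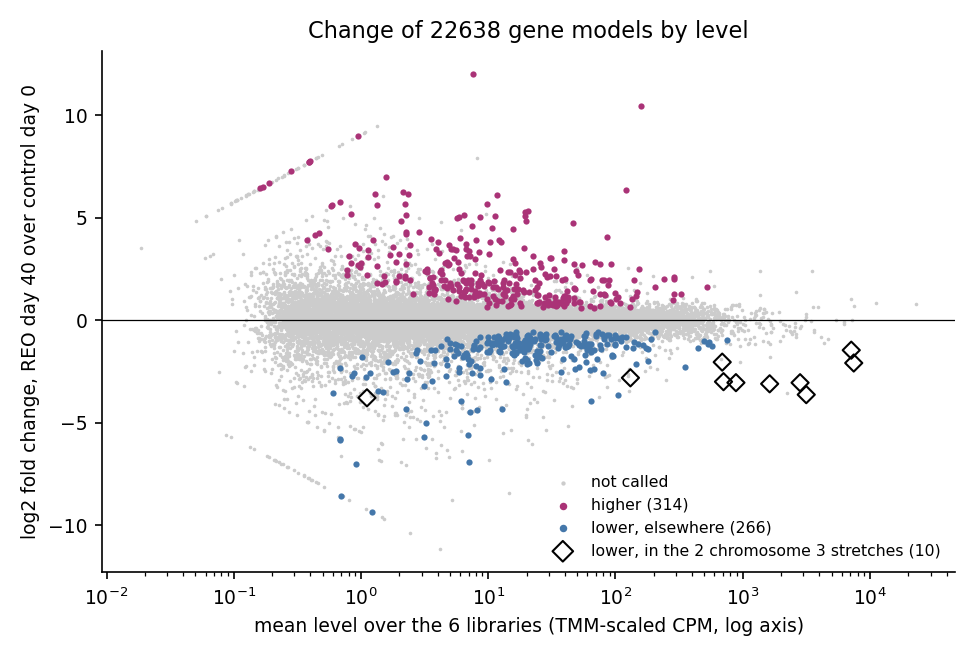
Log2 fold change of each tested gene model, REO day 40 over control day 0, against its mean TMM-scaled CPM over the 6 libraries on a log axis. Coloured points passed the test (314 higher, 276 lower), diamonds mark the 10 fallen models of the 2 chromosome 3 stretches described in the text, and the straight diagonal streaks are models with 0 counts in a whole group, whose fitted change is no bound.

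The share of models called depended on level, and the directions changed places along it. Among 8102 models with a mean of 1 to 10 CPM over the 6 libraries, 131 rose (1.62%) and 65 fell (0.802%). At 10 to 100 CPM, 140 of 9172 rose (1.53%) and 171 fell (1.86%). Among the 93 models at 1000 CPM or more, none (0) rose and 5 fell (5.38%). All 5 lay in the chromosome 3 stretches below, and 2 of them are the named ones. Under 1 CPM the standard error of a log2 fold change had a median of 0.73, against 0.19 at 10 to 100 CPM, and 24 models rose and 8 fell among 3480. The median log2 value of risen and fallen models was 4.71 and -4.67 under 1 CPM and 2.14 and -1.97 at 1 to 10 CPM. It was 1.5 and -1.16 at 10 to 100 CPM, and 1.4 and -1.24 at 100 to 1000 CPM. Counts per kilobase were not used for these classes, so a long model reaches a class sooner than a short one.

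**Figure D2:**
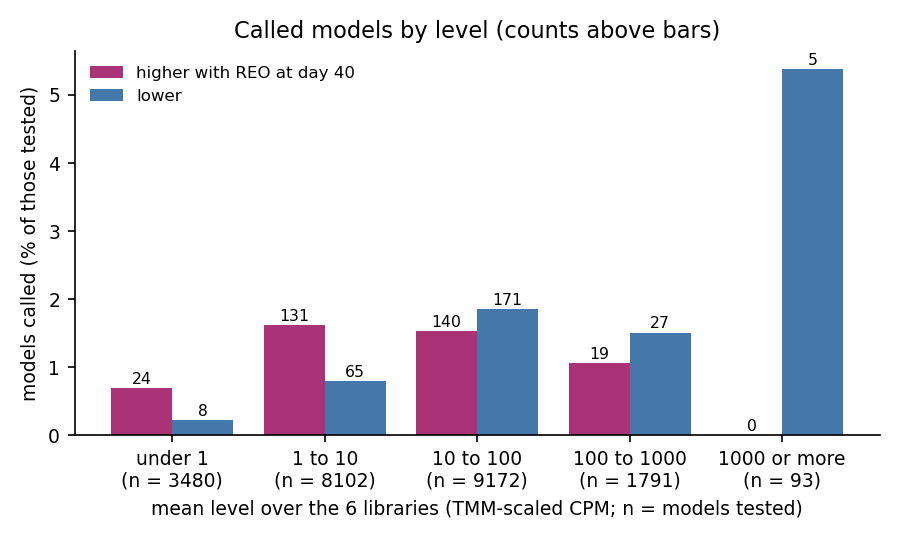
Share of tested models that rose or fell, in percent, by mean TMM-scaled CPM over the 6 libraries; numbers above bars are counts of models. Rises were more frequent than falls below 10 CPM and falls more frequent above it, up to 5 of 93 models at 1000 CPM or more.

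The largest losses came from chromosome 3. The 8 fallen models with the largest loss of CPM all lay in 2 stretches of its identifiers, each at most 25 steps long. These stretches were found after the values were seen, as the windows of 25 steps with the largest summed fall on any chromosome, so they carry no test of their own. Together they held 10 of the 276 fallen models and 75.9% of the CPM that the fallen models lost. Of the CPM lost by all tested models with a lower mean, called or not, the tested models of the stretches held 23.4%. The next such window, on chromosome 9, fell by 3536 CPM, and no model (0) was called there in the fit of 9 libraries. Models this close in the identifier order can be near copies of each other, and how reads of near copies were divided is not given, so single levels within a stretch are uncertain.

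The first stretch held 19 models, of which 15 were tested, and 7 of these fell while none (0) rose. Its summed level was 31723, 27416 and 42194 CPM in day 0 replicates 1, 2 and 3, and 5364, 8070.2 and 10616 CPM with REO. Control tubers at day 40 had 6141, 7123 and 8221 CPM. The lowest day 0 library stood above every day 40 library, with or without oil, and the stored groups overlapped each other. The mean was 33778 ± 7600.1 CPM at day 0, 8017 ± 2627 CPM with REO, a 4.21-fold lower value, and 7162 ± 1040.3 CPM without oil (SD, n = 3 each). On the CPM scale, taken per 1e6, the stretch stood at 3.38% at day 0 and 0.802% with REO. The scaled CPM of all tested models summed to 1044620 at day 0 and 1001470 with REO, so these are not shares of that sum.

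The fall in this stretch was led by Soltu.DM.03G018650. It had 10758, 10321 and 15139 CPM at day 0 and 1638, 2729 and 4178 CPM with REO. Control tubers at day 40 had 2068, 2346 and 2469 CPM. All 3 day 0 libraries lay above all 6 of day 40, and the control libraries of day 40 lay inside the range of the REO libraries. Its log2 fold change from day 0 to REO was -2.08 ± 0.35 (SE; edgeR adjusted p = 0.0203). Per length it was the most abundant model of the table at day 0, with 23216 ± 3012 FPKM (fragments per kilobase and per 1e6 mapped, a level per length), and stood at rank 4 with REO, at 5829 ± 2756 FPKM (SD, n = 3). The call was lost without day 0 replicate 1 or 3 (edgeR adjusted p = 0.0576 and 0.0553) and without REO replicate 1 or 2 (edgeR adjusted p = 0.0575 and 0.113).

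Soltu.DM.03G018580, 7 steps away, had 10664, 8582 and 12121 CPM at day 0 and 3094, 3562 and 4762 CPM with REO. Control tubers at day 40 had 2877, 3074 and 2761 CPM, so the 3 REO libraries lay above the 3 control libraries of that day and far below day 0. Its log2 fold change from day 0 to REO was -1.46 ± 0.25 (SE; edgeR adjusted p = 0.0205). Its level per length was second in the table at day 0, with 10546 ± 1124 FPKM, and at rank 7 with REO, with 4052 ± 1030.3 FPKM (SD, n = 3). The call was lost without the same 4 libraries in turn (edgeR adjusted p = 0.0731 and 0.0507 for day 0, 0.0956 and 0.114 for REO). For both models the difference between REO and control at day 40 did not pass, with log2 values of 0.31 ± 0.34 and 0.39 ± 0.24 (SE; edgeR adjusted p = 0.971 and 0.833). Storage without oil moved both past the threshold, by -2.40 ± 0.36 and -1.85 ± 0.25 on the log2 scale (SE; edgeR adjusted p = 0.0295 and 0.0247). The storage comparisons share the day 0 libraries. Of all models, 0.844% were called in storage without oil and 0.459% between REO and control at day 40.

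The other 5 fallen models of the first stretch had log2 fold changes of -3.10 to -2.04. They lay at 229 to 2917 CPM at day 0 and at 32.8 to 341 CPM with REO. An eighth abundant model, at the start of the stretch, had 3069.7, 3667 and 5631 CPM at day 0 and 69.4, 591 and 382 CPM with REO. Its log2 value of -3.57 ± 0.88 (SE) did not pass (edgeR adjusted p = 0.0721), and its REO libraries spread from 69.4 to 591 CPM. It was called with the control libraries of day 40 kept out of the fit (edgeR adjusted p = 0.0314). The 7 remaining tested models of the stretch stood under 12 CPM in every group mean, and none (0) was called.

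The second stretch, further along chromosome 3, split into models that fell strongly and models that did not pass. Its summed level was 23383, 23459 and 35596 CPM at day 0 and 9018, 7243 and 16025 CPM with REO, with 9955, 10625 and 13469 CPM in control tubers at day 40. All day 0 libraries lay above all stored ones, and the stored groups overlapped. Here 12 of 20 models were tested, 3 fell and none (0) rose. An abundant model 11 steps in had 5661, 3992 and 7877 CPM at day 0 and 574, 343 and 503 CPM with REO. This was a log2 fold change of -3.63 ± 0.59 (SE; edgeR adjusted p = 0.0171). Another, 4 steps further, had 4891, 3555 and 6669 CPM at day 0 and 873, 460.3 and 498 CPM with REO. This was a log2 fold change of -3.04 ± 0.60 (SE; edgeR adjusted p = 0.035). In both models every REO library lay far under the lowest day 0 library. The third fallen model was a low one, at 2.08 ± 1.06 CPM at day 0 and 0.150 ± 0.0846 CPM with REO (SD, n = 3).

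The means of control tubers at day 40 lay between, and their libraries were spread widely, with replicate 2 inside the REO range in both models. The model 11 steps in had 1066, 452 and 2377 CPM there, and the model 4 steps further had 1334, 466 and 2687 CPM. Neither passed the test between REO and control at day 40 (edgeR adjusted p = 0.501 and 0.634), nor in storage without oil (edgeR adjusted p = 0.103 and 0.168). The remaining 5 abundant models of the stretch had log2 values of -1.16 to -0.47 with REO, and none (0) was called. In those 5, REO replicate 3 stood highest of its group, at 1241 to 4847 CPM. The call of the 10 fallen models in the 2 stretches rested on several libraries. It was kept in 4 without day 0 replicate 1 and in 4 without day 0 replicate 3, and in 3, 2 and 7 without REO replicates 1, 2 and 3. When the control libraries of day 40 were kept out of the fit, all 10 were called.

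**Figure D3:**
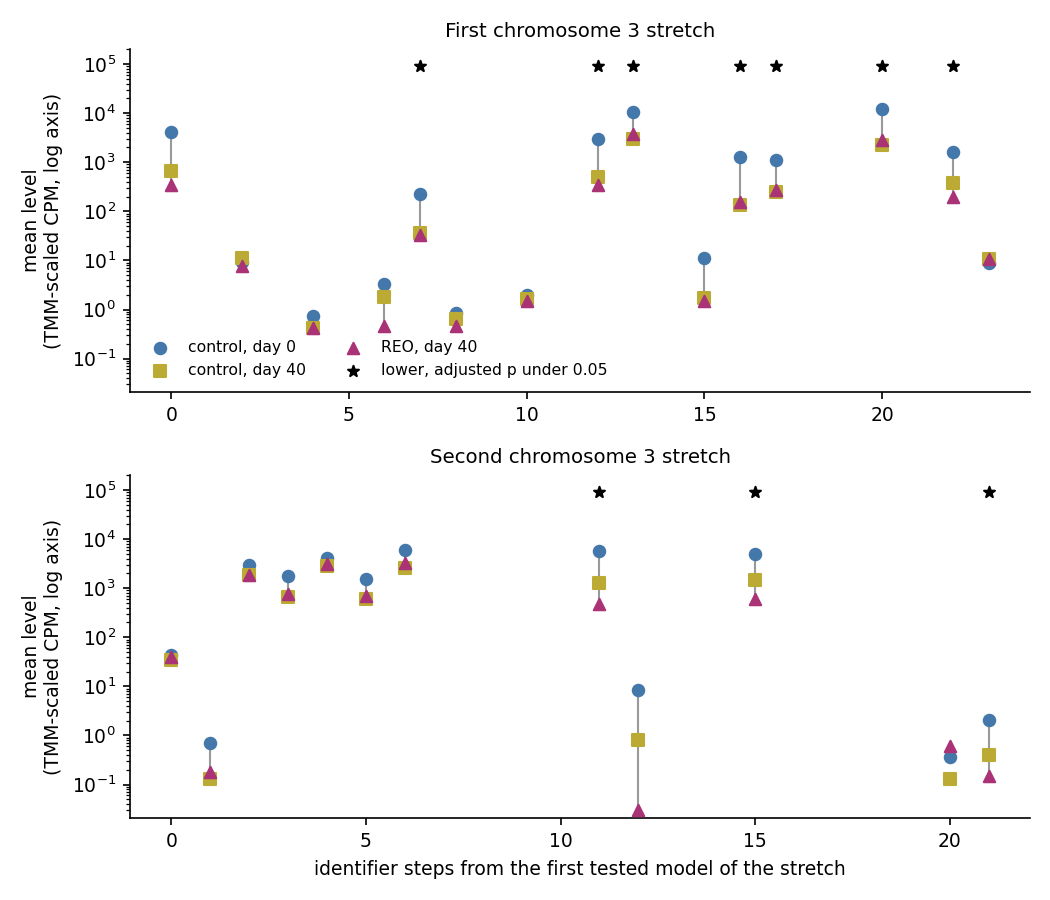
Mean TMM-scaled CPM (log axis) of each tested model of the 2 chromosome 3 stretches in control day 0 (circles), control day 40 (squares) and REO day 40 (triangles), by identifier steps from the stretch's first tested model; a mean of 0 is drawn at the lower edge and stars mark models that fell. In the upper panel 7 models fell, in the lower panel 3.

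Taken over the whole chromosome, the summed level of chromosome 3 models was 142552, 138028 and 168897 CPM at day 0 and 99057, 98418 and 109859 CPM with REO. Without the 2 stretches it was 87446, 87153 and 91107 CPM at day 0 and 84675, 83106 and 83218 CPM with REO. The day 0 libraries stayed above the REO libraries, by a far smaller margin. In counts of calls the chromosome did not stand out, with 29 risen (1.31%) and 31 fallen (1.40%) of 2209 models. Across the 12 chromosomes the risen share ran from 0.732% on chromosome 1 to 1.93% on chromosome 9, and the fallen share from 0.859% on chromosome 11 to 1.64% on chromosome 8. Of 1217 models that the submitters labelled as new genes, 7 rose and 7 fell (0.575% each).

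The largest gain among the risen models was that of Soltu.DM.06G005440 on chromosome 6. It had 207, 315 and 251 CPM at day 0 and 766, 876 and 758 CPM with REO, with 423, 521 and 476 CPM in control tubers at day 40. The 3 groups did not overlap, and control tubers at day 40 lay between the others. Its log2 fold change from day 0 to REO was 1.64 ± 0.19 (SE; edgeR adjusted p = 0.00526). The steps by way of control tubers at day 40 did not pass, with 0.88 ± 0.19 for storage without oil and 0.76 ± 0.19 for REO against control (SE; edgeR adjusted p = 0.071 and 0.191). Per length it went from 74.7 ± 19.1 FPKM at day 0 to 249 ± 23.7 FPKM with REO. Its call was kept in all 28 alternatives, with adjusted p of 5.75e-17 to 0.0304.

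Soltu.DM.10G026780 on chromosome 10 had the next largest gain. It had 99.7, 79.5 and 142 CPM at day 0 and 430.1, 554 and 415 CPM with REO, and 171, 71.8 and 162 CPM in control tubers at day 40. The control libraries of both days overlapped, and the lowest REO library stood above all 6. Its log2 fold change from day 0 was 2.12 ± 0.35 (SE; edgeR adjusted p = 0.018). Against control at day 40 the log2 difference was 1.79 ± 0.34 and did not pass (SE; edgeR adjusted p = 0.077). The call was lost without day 0 replicate 1 or 2 (adjusted p = 0.0838 and 0.0668) and without REO replicate 1 or 2 (adjusted p = 0.065 and 0.0888).

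**Figure D4:**
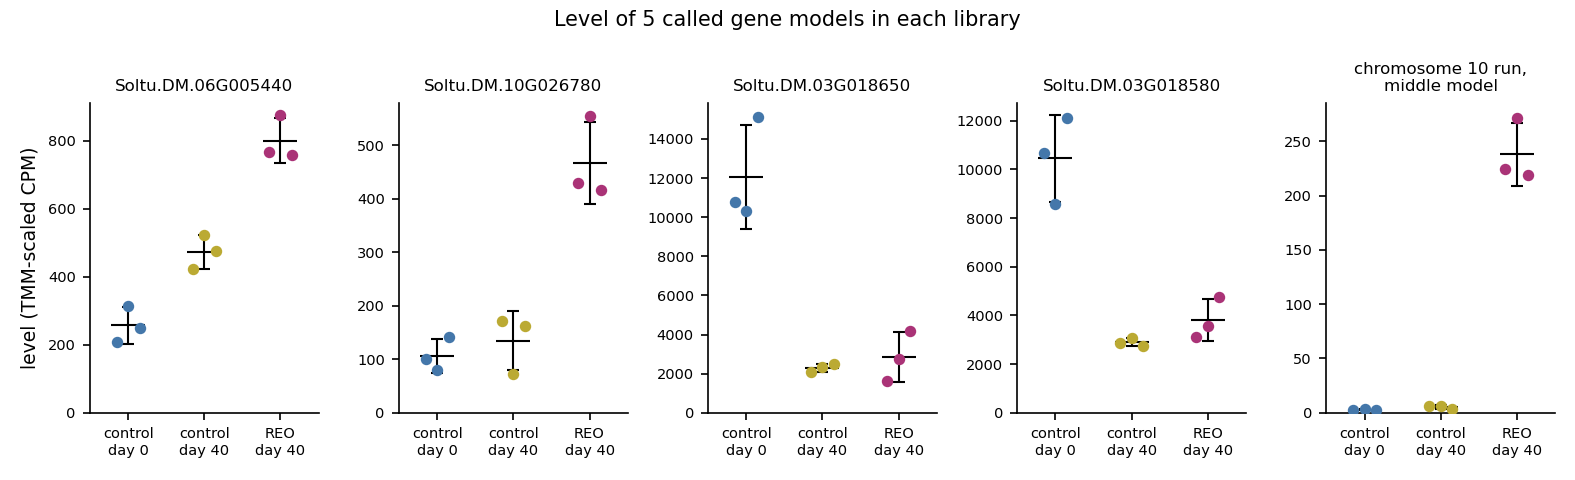
TMM-scaled CPM in each library (points) with mean and SD (bars, n = 3) for the 4 named models and for the middle model of the chromosome 10 run. The 2 risen named models and the chromosome 10 model are highest with REO, and the 2 fallen models are highest at day 0.

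Some risen models also stood next to each other in the identifier order, and so did some fallen ones. There were 14336 pairs of tested models 1 step apart. Of the 403 pairs that held a risen model, 21 (5.21%) held 2. For fallen models it was 9 of 351 pairs (2.56%). Over all tested models 1.39% rose and 1.22% fell. The pair shares count only pairs that already held a called model, so they cannot be read directly against these. A risen and a fallen model stood side by side in 5 pairs. Risen models with a risen neighbour formed 12 runs of 2, 3 runs of 3 and 1 run of 4, and the fallen ones formed 9 runs of 2. As in the stretches, near copies may share reads, so the members of a run are not independent, and no test was made.

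The run of 3 on chromosome 10 held the model with the smallest adjusted p of the comparison. Its middle model had 2.49, 3.90 and 2.42 CPM at day 0 and 224, 271 and 219 CPM with REO, with 6.26, 6.25 and 3.02 CPM in control tubers at day 40. Every control library was at least an order of magnitude below every REO library. Its log2 fold change was 6.34 ± 0.36 from day 0 and 5.52 against control at day 40 (SE for the former; edgeR adjusted p = 0.000489 and 0.000561). The model before it went from 0.331 ± 0.135 to 23.1 ± 2.69 CPM and the model after it from 0.337 ± 0.225 to 11.1 ± 1.17 CPM (SD, n = 3), log2 fold changes of 6.10 and 5.0 (edgeR adjusted p = 0.00201 and 0.00289). All 3 were called in every one of the 28 alternatives.

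The run of 4 on chromosome 12 began with models of nearly equal level. The first had 0.654, 1.21 and 1.03 CPM at day 0 and 15.04, 39.8 and 58.7 CPM with REO, and the next had 0.841, 1.02 and 1.17 CPM and 15.8, 49.1 and 56.3 CPM. Their log2 fold changes were 5.29 ± 0.56 and 5.32 ± 0.52 (SE; edgeR adjusted p = 0.00349 and 0.00258). REO replicate 1 was the lowest of its group in all 4 models of the run. The third model had 0, 0.169 and 0 CPM at day 0 and 1.83, 5.98 and 6.11 CPM with REO. Its day 0 mean of 0.0565 CPM lay under the level of 3 counts, 0.0867 to 0.0958 CPM at day 0, so its fold is uncertain. Control tubers at day 40 had means of 2.94, 2.53 and 0.0212 CPM in the first 3 models, the third again under the level of 3 counts. These 3 passed between REO and that control (edgeR adjusted p = 0.0239, 0.0115 and 0.0498). The last model of the run rose from 2.83 ± 1.11 to 11.02 ± 2.61 CPM and stood at 8.42 ± 1.49 CPM in control tubers at day 40. It did not pass between REO and that control (edgeR adjusted p = 0.926). Without REO replicate 2 or 3, or day 0 replicate 1 or 3, the run kept 2 calls against day 0.

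The other runs of 3 lay on chromosomes 2 and 5. On chromosome 2 the means were 0.0471 to 0.345 CPM at day 0 and 2.35 to 11.5 CPM with REO, with 0.776 to 2.53 CPM in control tubers at day 40. The lowest day 0 mean of the run, from 0, 0.141 and 0 CPM, also lay under the level of 3 counts. This run kept no call (0) with limma-voom or without REO replicate 2, and 1 to 2 calls without REO replicate 1 or 3 or without any of the day 0 libraries. On chromosome 5 one model rose from 11.9 ± 3.19 to 36.4 ± 4.84 CPM, with 15.8 ± 0.584 CPM in control tubers at day 40 (edgeR adjusted p = 0.00784). Its neighbours rose from 0.551 and 0.0312 CPM to 7.56 and 2.55 CPM (edgeR adjusted p = 0.0101 and 0.0128). The day 0 mean of 0.0312 CPM, from 0.0935, 0 and 0 CPM, lay under the level of 3 counts as well. The chromosome 5 run kept 1 call without REO replicate 2.

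The largest summed gain of any 25-step window lay on chromosome 4 and did not pass the test. Its level was 975, 2825 and 1739 CPM at day 0, 4828, 11963 and 10972 CPM with REO and 1387, 1264 and 531 CPM in control tubers at day 40. The lowest REO library stood above the highest of the other 6. The gain came from 3 models with log2 values of 2.39 to 2.40 and SE of 0.56 to 0.60 (edgeR adjusted p = 0.0627, 0.0778 and 0.0688). The most abundant of them had 560.3, 1741 and 1022 CPM at day 0 and 3009, 7576 and 6966 CPM with REO. The 3 models moved in nearly constant proportion over the libraries. When the control libraries of day 40 were kept out of the fit, all 3 were called (adjusted p = 0.0371, 0.0448 and 0.0346).

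**Figure D5:**
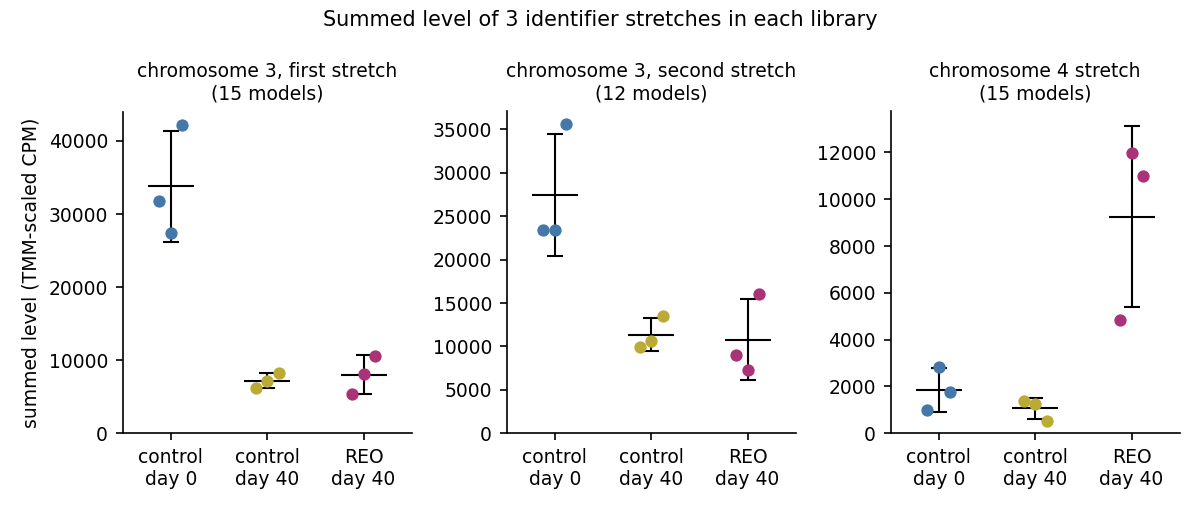
Summed TMM-scaled CPM of the tested models of 3 identifier stretches in each library (points), with mean and SD (bars, n = 3), axes starting at 0. The chromosome 3 stretches are highest at day 0 in all 3 libraries, and the chromosome 4 stretch is highest with REO, where it did not pass the test model by model.

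Without any threshold on p, the 3 REO libraries lay above all 3 day 0 libraries in 3189 of the tested models (14.1%) and below them in 3255 (14.4%). All 590 called models were among these. Of the 34239 models of the whole table, 104 had 0 counts in every day 0 library and at least 1 count in every REO library, and 84 had the reverse. Most of these lay near the floor. Of the 104, 32 had enough counts to test and 9 were called. Of the 84, 24 could be tested and 2 were called. A level of 1 CPM (scaled to library size only) in all libraries of the other group was reached by 2 and 1 of them. A count of 0 allows up to 3 counts, which is 0.0843 to 0.102 CPM in these 6 libraries. Another 6952 models had 0 counts in all 6.

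For a large part of the table the data bounded the change. In 11598 tested models (51.2%) the 95% interval of the log2 fold change lay within -1 and 1, a change of less than 2-fold either way. Among the 1884 models at 100 CPM or more it was 1322 (70.2%). In 2274 models the interval reached past 2-fold in both directions, so no statement on these can be made at this spread between libraries. Models that are not called include many whose interval still holds a change of 2-fold or more.

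For the library as a whole, the difference on the count scale was within the spread between replicates. The 100 most abundant models of a library held 25.04%, 23.9% and 29.9% of counts at day 0 and 27.6%, 23.8% and 24.4% with REO, a difference in means of -1.03 percentage points (exact permutation test, two-sided, p = 0.6, adjusted over 2 measures 0.7). Models with at least 1 count numbered 24289, 25078 and 23994 at day 0 and 24200.0, 24283 and 25195 with REO, a difference of 106 (exact permutation test, two-sided, p = 0.7, adjusted 0.7). The smallest p that 3 against 3 libraries allow is 0.1. Per length, the share of summed FPKM held by the 100 most abundant models was 31.1%, 30.3% and 36.1% at day 0 and 27.8%, 26.8% and 28.7% with REO. Here the groups did not overlap, a difference of -4.73 percentage points (exact permutation test, two-sided, p = 0.1, the smallest possible).

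Beside the control tubers of day 40, the risen and fallen sets had different places. The risen models had a median log2 change of 0.87 in storage without oil and of 0.91 between REO and control at day 40. The fallen models had medians of -0.96 and -0.32, and all tested models 0.04 and -0.05. These comparisons share libraries with the one that chose the sets, so the medians are given side by side and compared with no test. The median SD of log2(CPM + 0.5) between replicates was 0.21 for the risen models, 0.23 for the fallen and 0.27 for all at day 0. With REO it was 0.21, 0.18 and 0.19, and in control tubers at day 40 it was 0.33, 0.26 and 0.29. The test that chose the sets favours a small spread between these libraries, so the SDs are a description only. The median length scale, taken by dividing counts by FPKM, was 1872 bases for the risen, 1677 for the fallen and 1681 for all tested models.

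The number of calls depended on which libraries entered the fit. With the day 40 control libraries kept out, 1208 of 21846 models were called (5.53%), and leaving out control day 40 replicate 2 gave 1430 of 22917. The models tested and the residual degrees of freedom changed with the libraries too. Without day 0 replicate 1, 2 or 3 there were 189, 289 or 289 calls. Without REO replicate 1, 2 or 3 there were 176, 93 or 207 calls, the fewest being those without replicate 2.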

How the data were processed

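Poly(A)-selected, random-primed libraries were made from tuber RNA, per the labels' protocols, with no strand-marking step described. The authors deposited whole-number counts and a second table, read as FPKM from its values because its header names no unit. Per the submitters' processing notes, HISAT2 2.1.0 and DESeq2 were used, with no role stated. The build, the annotation and the tool that counted reads were not given in the sources used here. In the deposited counts, 1 was found 1998 times and 2 was found 4901 times, so mates may have been counted separately.

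The deposited counts were filtered with filterByExpr, scaled by TMM and fitted with the edgeR 4.0.16 quasi-likelihood model (R 4.3.3), with 1 coefficient for each of the 3 groups and all 9 libraries. Adjusted p-values (Benjamini-Hochberg, 0.05) run over all 22638 tested models. CPM values are TMM-scaled. Standard errors come from the F statistic, and intervals from its degrees of freedom. DESeq2 1.42.0, limma 3.58.1 and other scalings, filters and libraries served as alternatives. The scripts were tested on simulated data. Library totals of 29330673 to 36901701 counts put the floor of 3 counts at 0.0813 to 0.102 CPM, for counting error only. The log2(FPKM + pseudocount) scale understates changes of low models.

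The named models are those with the largest gain or loss of mean CPM among called models whose groups do not overlap, 2 each way. Members, lists and this rule were chosen with earlier results of these data known. Gene lists drawn up by symbol had 0 testable members. Stretches of 25 identifier steps and runs were described after the values were seen.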

Additional observations from a re-analysis of the deposited data

How the results depend on the processing

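Against 314 risen and 276 fallen models, DESeq2 called 941 and 1113, a test against a minimum fold of 1.5 gave 122 and 43, and adjusted p thresholds of 0.01 and 0.1 gave 75 and 27, and 579 and 608. Only the 6 libraries compared gave 617 and 591 with edgeR and 1303 and 1541 with DESeq2. Leaving out each library in turn gave 73 to 701 risen and 20 to 729 fallen. A replicate block gave 166 and 134 with 9 libraries and 579 and 701 with 6. Same-numbered libraries had correlations of deviations of 0.232, -0.174 and 0.186, and differently numbered ones ran from -0.324 to 0.136, which does not settle a pairing. The labels do not say that a number marks a shared tuber, lot or day, so the numbers were not taken as pairs. With control day 40 replicate 2 and REO replicate 3 both removed, chosen after seeing the data, there were 475 and 535. Other scalings, filters, limma fits and leaving out the 20 most abundant models kept both counts within 1.5 times.

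The difference in the share held by the most abundant models was 1.66 percentage points for 10 models, opposite in sign to that for 100, and -2.22 to 0.80 with each library left out. It was 0.80 without day 0 replicate 3. The difference in detected models was -212 to 418 with each library left out, and -124 without day 0 replicate 3 and -212 without REO replicate 3. Paired by number as a replicate block, they stayed at -1.03 and 106 (exact sign-flip permutation p = 0.75 and 1).

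The calls of Soltu.DM.03G018650 and Soltu.DM.03G018580 were each lost in 8 of 27 alternatives, among them without day 0 replicate 1 or 3 and REO replicate 1 or 2, with adjusted p up to 0.113 and 0.114. They were also lost with the minimum fold of 1.5 and at the adjusted p threshold of 0.01. On log2(FPKM + pseudocount) neither passed (limma adjusted p = 0.0639 and 0.0557 for the former with pseudocounts of 1 and 0.1, 0.0892 and 0.0786 for the latter). The cause of these shifts was not tested. Depth limits models under 1 CPM most.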

Other observations

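Models labelled as new genes by the submitters held the most abundant counts of the table. The 5 with consecutive numbers summed to 30001, 21158 and 63187 CPM at day 0, 112487, 54138 and 35015 CPM with REO and 47905, 24659.8 and 57611 CPM in control tubers at day 40. The groups overlapped, and none (0) of the 5 was called, with adjusted p (edgeR) of 0.369 to 0.530. The remaining new-gene models summed to 15577 ± 649 CPM at day 0 and 15660.4 ± 1203 CPM with REO (SD, n = 3 each).

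On chromosome 9, a stretch of 24 models, 21 of them tested, stood at 4141, 4209.7 and 9138 CPM at day 0 and 864, 2452 and 3565 CPM with REO. Control tubers at day 40 had 1216, 3249 and 1555 CPM. All 6 stored libraries lay below day 0, and none (0) of its models was called in the fit of 9 libraries. With the control libraries of day 40 kept out of the fit, 1 of them was called (edgeR adjusted p = 0.0336). It was a low model, with means of 17.4 CPM at day 0 and 6.15 CPM with REO. The 8 models with a mean of 100 CPM or more in either group were not called in that fit (edgeR adjusted p = 0.0919 to 0.484).

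A window on chromosome 11 stood at 1545, 1484 and 1885 CPM at day 0, 4843, 4211 and 2963 CPM with REO and 4616, 2292 and 4073 CPM in control tubers at day 40. Almost all of it was 1 model, whose log2 value from day 0 to REO of 1.40 did not pass (edgeR adjusted p = 0.0575). With the control libraries of day 40 kept out of the fit, that model was called (edgeR adjusted p = 0.0246).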
